A study of Mus musculus with 2 samples.

Results

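The 8 genes described here encode effector cytokines of lymphocytes: *Ifng*, *Tnf*, *Il2*, *Il21*, *Il17a*, *Il4*, *Il10* and *Csf2*. They were chosen by symbol, and all 8 were among the 50768 genes listed for each of 2 single-cell RNA sequencing (scRNAseq) libraries of mouse salivary gland. Their unique molecular identifiers (UMIs, 1 for each RNA molecule captured) were read in barcodes with at least 500 UMIs and at least 300 genes, which gave 6500 barcodes in the NOD library and 7014 in the CD1 library. Each cytokine was then assigned to the lymphocyte subset that held its UMIs, by the presence of *Cd4*, *Cd8a*, *Foxp3*, *Trdc* or *Ncr1* UMIs.

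Effector cytokines are transcribed in short bursts after a lymphocyte meets its antigen or an innate stimulus. Interferon gamma is the signature product of T-bet-driven helper T cells, cytotoxic T cells and natural killer (NK) cells, whereas interleukin-17A belongs to gamma delta T cells and a class of helper T cells, interleukin-21 to helper T cells that assist B cells, and interleukin-10 to regulatory T cells and some macrophages. In salivary glands with lymphocytic infiltrates, as in Sjögren's disease, these products act on epithelial, endothelial and myeloid cells through receptors of their own.

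The study compared 1 library of NOD/ShiLtJ mice, an inbred strain used as a model of Sjögren's disease, with 1 library of CD1 mice, an outbred strain used as the control. Both came from untreated 20-week-old females, and submandibular glands with the adjacent sublingual glands were pooled over 4 mice per strain by the study's methods, or 3 by the sample labels. EpCAM-bearing and Ter119-bearing cells, and dead cells, had been taken out of the suspension, and both libraries carry the same batch label. Because each strain was a single pooled library, strain differences were not testable. Values carry exact 95% intervals, which cover counting error only and say nothing of the spread over mice.

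Median depth was 5719.5 (NOD) and 6495 (CD1) UMIs per barcode, but 6549.5 and 9319 in T/NK and 3746 and 7006 in myeloid barcodes. Levels are given as counts per 1000000 UMIs (CPM) of a class of barcodes, and ratios are NOD over CD1. The labels describe the suspension as stromal-enriched, yet stromal markers led in only 56 of the NOD barcodes and 48 of the CD1 barcodes. Markers of T and NK cells led in 3024 NOD barcodes (46.5%) and 510 CD1 barcodes (7.27%). Barcodes with 10 to 100 UMIs, which are mostly empty droplets, held *Ifng* at 79.4 CPM in NOD and 7.42 in CD1, against 64.4 and 6.01 over all cell barcodes, so free *Ifng* RNA was present in each suspension. *Il2* stood at 8.37 CPM in such NOD barcodes against 3.31 in cell barcodes, and *Csf2* at 12.2 against 4.77 in NOD and 7.71 against 2.51 in CD1. Endothelial barcodes, which should not express most of these genes, serve as the background below, with medians of 5132 (NOD) and 6252 (CD1) UMIs. Of the barcode sequences, 18 passed in both libraries (0.277% of NOD and 0.257% of CD1). The *Ifng* log2 ratio was 3.43 without them against 3.42 with them.

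The RefSeq promoter table (build GRCm38.p6) held a window for 7 of the 8 genes. Motifs of factors known to act on cytokine promoters were searched on both strands in the 250 bases before the start of each gene. The NFAT core GGAAA, which reads as its reverse complement where it lies on the other strand, was found in 55.6% of all 32851 windows, the AP-1 motif TGANTCA in 6.75%, TATAAA in 12.4% and the T-box core GGTGTGA in 3.33%. The windows of *Ifng* and *Tnf* are shown because these were the members with the most UMIs, and those of *Il21* and *Il17a* because each was held mainly by barcodes of 1 marker. Capitals mark the motif matches, and each sequence runs 5′ to 3′ up to the base before the start.
Ifng (chr10:118440796-118441045, plus strand): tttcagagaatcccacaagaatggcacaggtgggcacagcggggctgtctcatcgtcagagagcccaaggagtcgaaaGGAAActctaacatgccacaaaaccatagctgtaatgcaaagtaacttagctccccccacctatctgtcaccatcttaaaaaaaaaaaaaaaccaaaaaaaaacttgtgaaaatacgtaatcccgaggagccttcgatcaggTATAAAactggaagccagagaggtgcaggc
Tnf (chr17:35202008-35202257, minus strand): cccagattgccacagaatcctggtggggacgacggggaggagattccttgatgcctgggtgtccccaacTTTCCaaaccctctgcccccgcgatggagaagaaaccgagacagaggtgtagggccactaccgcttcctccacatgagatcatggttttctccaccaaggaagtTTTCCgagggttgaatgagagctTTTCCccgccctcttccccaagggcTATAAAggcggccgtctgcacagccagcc
Il21 (chr3:37232637-37232886, minus strand): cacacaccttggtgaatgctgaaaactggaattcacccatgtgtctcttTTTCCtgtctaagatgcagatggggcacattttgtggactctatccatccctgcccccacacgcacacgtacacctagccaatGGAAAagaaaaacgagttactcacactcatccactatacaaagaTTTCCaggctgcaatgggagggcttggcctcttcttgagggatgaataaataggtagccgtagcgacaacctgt
Il17a (chr1:20730655-20730904, plus strand): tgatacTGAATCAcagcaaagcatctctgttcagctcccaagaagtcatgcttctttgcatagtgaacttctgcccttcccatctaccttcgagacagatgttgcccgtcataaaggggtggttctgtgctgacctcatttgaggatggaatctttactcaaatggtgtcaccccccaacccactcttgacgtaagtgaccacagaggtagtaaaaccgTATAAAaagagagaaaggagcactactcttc

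The *Ifng* window held 1 NFAT core and TATAAA at 30 to 25 bases before the start. The *Tnf* window held 3 NFAT cores and TATAAA at 29 to 24 bases. The *Il21* window held 3 NFAT cores and no TATAAA. The *Il17a* window alone of the members held the AP-1 letters, beside TATAAA at 31 to 26 bases. *Il2* and *Csf2* had 2 NFAT cores each, and of the 2 windows of *Il4* 1 had none and the other had 5. No member's window held the T-box core. These are matches of letters and not shown to be bound, and the NFAT core is too common among promoters to set the members apart.

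T/NK barcodes were split into subsets by which of the 5 marker genes had a UMI. The *Cd4* and *Trdc* subsets held that marker alone, the *Foxp3* subset no *Cd8a* or *Ncr1*, the *Cd8a* subset no *Cd4*, *Foxp3* or *Ncr1*, and the *Ncr1* subset no *Cd4*, *Cd8a* or *Foxp3*, so the last 3 could also hold *Trdc*, and the *Foxp3* subset *Cd4* too. In NOD, 799 barcodes formed the *Cd4* subset, 199 the *Foxp3* subset, 518 the *Cd8a* subset, 125 the *Trdc* subset and 745 the *Ncr1* subset. The CD1 counts were 32, 3, 21, 17 and 366. CD1 T-cell subsets were thus small, and only the *Ncr1* subset was large enough in both strains for a comparison of 4 members (*Ifng*, *Tnf*, *Il2* and *Csf2*) with more than 3 UMIs in each. A further 182 NOD and 13 CD1 barcodes carried other combinations of markers and were kept apart, with medians of 10875 and 19259 UMIs that lay above those of every single-marker subset, and whether they were doublets was not tested. Marker genes matched the names of the *Cd4*, *Cd8a* and *Trdc* subsets, whereas the *Ncr1* subset differed in make-up between the strains. *Trac* stood at 528 CPM in the NOD *Cd4* subset and 77.5 in the *Trdc* subset, *Cd8b1* at 426 in the *Cd8a* subset and 3.46 in the *Cd4* subset, and *Cd3e* at 214 in the NOD but 32.1 in the CD1 *Ncr1* subset. Barcodes with *Ncr1* and *Cd3e* together made up 285 of 745 in NOD and 23 of 366 in CD1. *Cd3g* UMIs occurred in 484 of these 745 NOD and 124 of the 366 CD1 barcodes. *Trdc* UMIs occurred in 456 of the 745 NOD *Ncr1* barcodes, so *Trdc* alone does not separate gamma delta T cells from NK cells here.

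**Figure D1:**
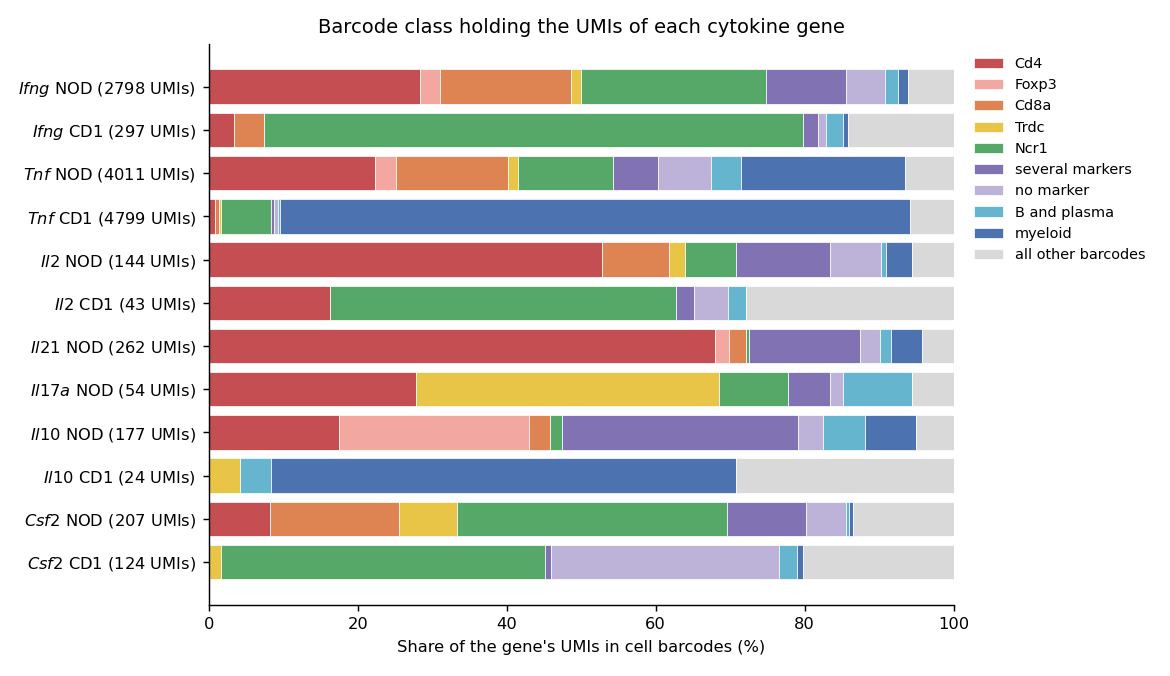
Share of each gene's UMIs (%, horizontal axis) held by each class of barcodes, for every member and strain with at least 20 UMIs. The NOD *Ifng* bar is divided mainly among the *Cd4* (28.4%), *Ncr1* (24.8%) and *Cd8a* (17.7%) subsets, whereas 72.4% of the CD1 bar lies in the *Ncr1* subset and 84.5% of the CD1 *Tnf* bar in myeloid barcodes.

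Over all barcodes, 7 of the 8 members had at least 20 UMIs in the libraries together, and 5 of these 7 stood at least 2-fold higher in NOD and none 2-fold lower. Among all 19827 genes with as many UMIs, 15.9% were at least 2-fold higher and 14.6% at least 2-fold lower in NOD. The 5 were *Ifng*, *Il2*, *Il21*, *Il17a* and *Il10*. The median log2 ratio of the 7 was 3.07, against 0.10 over all genes. T/NK barcodes held 52.8% of the NOD UMIs and 11.0% of the CD1 UMIs, a 4.78-fold difference that enters each of these ratios.

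*Ifng*, which encodes interferon gamma, the main macrophage-activating cytokine of T and NK cells, was found at 2798 UMIs in 1067 NOD barcodes and at 297 UMIs in 159 CD1 barcodes. Its levels were 64.4 CPM (NOD) and 6.01 CPM (CD1), a log2 ratio of 3.42 (3.25 to 3.60) or 10.7-fold. Within T/NK barcodes the levels were 111 and 45.1 CPM (log2 ratio 1.30, 1.11 to 1.49), so the difference was 2.46-fold once the larger share of lymphocytes in NOD was set aside. T/NK barcodes held 90.8% of the NOD *Ifng* UMIs and 82.8% of the CD1 UMIs.

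The same transcript was spread over several subsets in NOD and concentrated in 1 subset in CD1. In NOD, *Ifng* stood at 138 CPM in the *Cd4* subset (795 UMIs, 274 of 799 barcodes), 134 in the *Cd8a* subset (494 UMIs, 217 of 518) and 104 in the *Ncr1* subset (695 UMIs, 258 of 745). The *Cd4* and *Cd8a* levels did not differ beyond their counting intervals (128 to 148 and 122 to 146), and the *Ncr1* level (96.7 to 112) lay below both. The *Foxp3* subset (49.8 CPM, 26 of 199 barcodes) and the *Trdc* subset (49.3 CPM, 15 of 125) followed with overlapping intervals. In CD1, 215 of the 297 UMIs were in the *Ncr1* subset at 52.3 CPM, 12 in the *Cd8a* subset at 51.7 CPM and 10 in the *Cd4* subset at 40.1 CPM. No UMI was found in the 17 *Trdc* barcodes, which allows a share of up to 17.6%, or in the 3 *Foxp3* barcodes, which are too few to bound it.

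Each subset that could be compared had a higher *Ifng* level in NOD. The log2 ratio was 1.78 (0.89 to 2.85) in the *Cd4* subset, 1.37 (0.55 to 2.33) in the *Cd8a* subset and 1.00 (0.77 to 1.22) in the *Ncr1* subset. Only the last rests on more than 12 CD1 UMIs. Shares of barcodes with a UMI showed less of a difference, at 41.9% in NOD and 42.9% in CD1 for *Cd8a* and 34.6% and 31.4% for *Ncr1*, where the CD1 barcodes were deeper (8109 and 9673.5 UMIs). Endothelial background was 1.66% and 0.179%. Thinned to 500 UMIs, the *Ncr1* shares were 4.43% (3.07% to 6.16%) and 2.46% (1.13% to 4.62%), on 33 and 9 barcodes. Of NOD *Ncr1* barcodes 12.6% held 3 or more *Ifng* UMIs, against 4.92% of those of CD1. The *Ncr1* shares thus overlapped in their intervals both thinned and unthinned (unthinned 31.2% to 38.2% and 26.7% to 36.4%), whereas the levels did not.

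**Figure D2:**
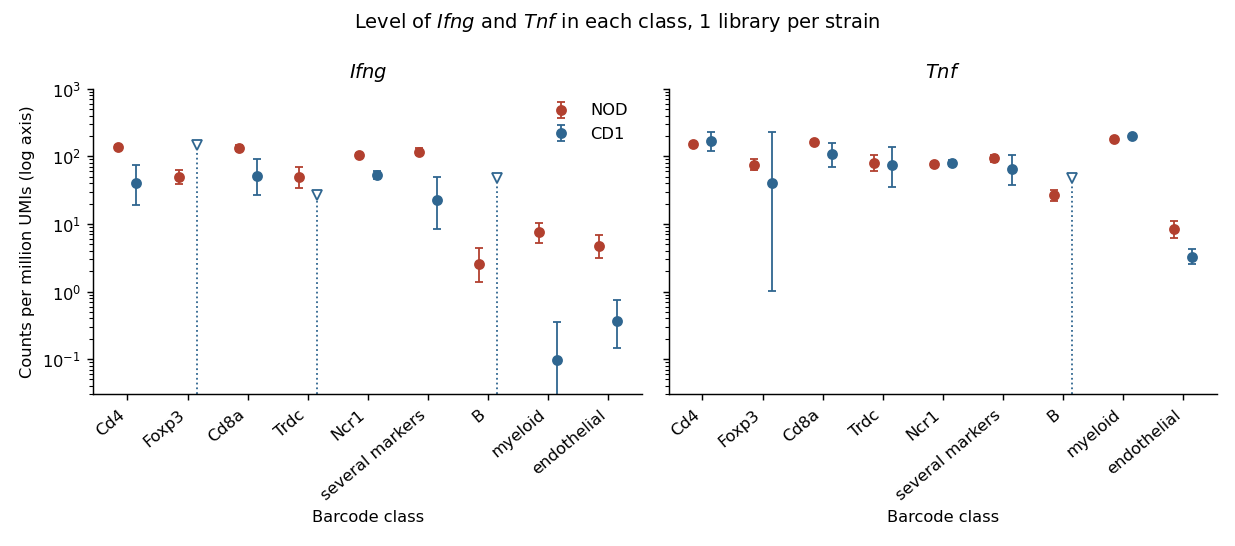
*Ifng* and *Tnf* in CPM (log axis) by class of barcodes in NOD (red) and CD1 (blue), 1 library per strain. Points with bars are levels with exact 95% Poisson intervals, and open triangles mark the upper limit where no UMI was found. *Ifng* lies higher in NOD in each subset measured in both strains, whereas *Tnf* in the *Ncr1* subset (76.4 and 79.3) lies together.

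**Figure D3:**
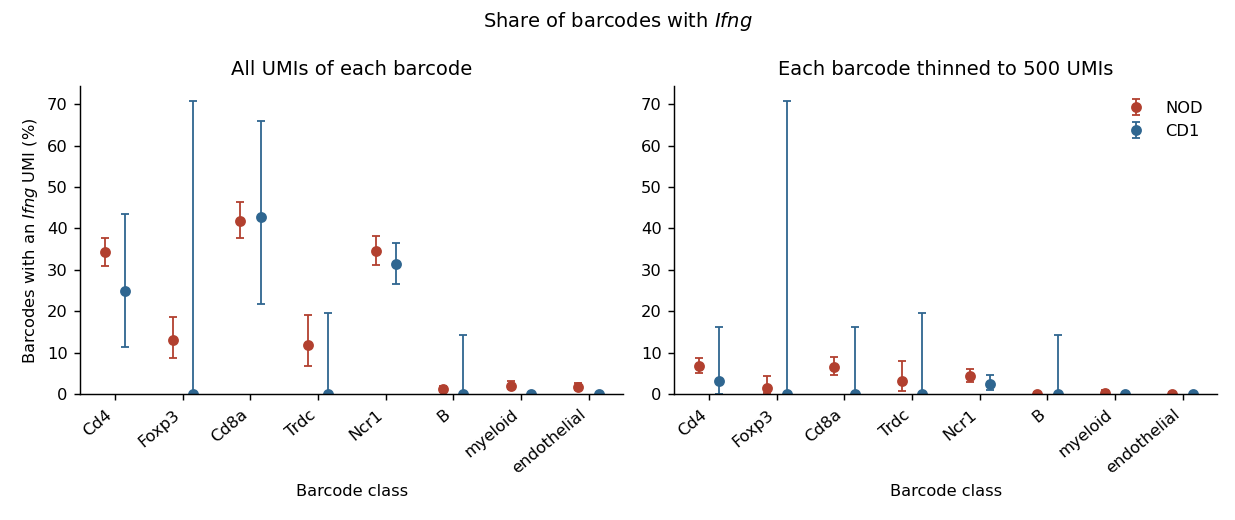
Barcodes with an *Ifng* UMI (%) by class, with all UMIs (left) and after each barcode was thinned to 500 UMIs (right), with Clopper-Pearson 95% intervals. In NOD the *Cd4*, *Cd8a* and *Ncr1* subsets hold shares of 34.3%, 41.9% and 34.6% and endothelial barcodes 1.66%, and the wide CD1 intervals show how few CD1 T cells there were.

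Because more NOD than CD1 *Ncr1* barcodes carried *Cd3e*, the subset was also split by this gene, a split chosen after the values were seen. Among barcodes without *Cd3e* (460 and 343), the *Ifng* level was 84.6 CPM (NOD) against 51.9 (CD1, log2 ratio 0.71, 0.44 to 0.97). Among those with *Cd3e* (285 and 23), it stood at 128 and 56.3 CPM (1.18, 0.55 to 1.89). The NOD level was the higher in both, although without *Cd3e* the share of barcodes with a UMI was 27.6% in NOD and 30.9% in CD1. *Eomes*, a T-box factor of mature NK cells, was at 313 CPM in NOD and 144 in CD1 among barcodes without *Cd3e*. *Trdc* stood there at 173 and 88.3 CPM and *Trac* at 12.1 and 3.75. The make-up of this fraction thus differed too, and its part in the *Ifng* difference was not tested.

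Outside the T/NK barcodes, those with markers of more than 1 lineage held the most *Ifng*, 122 UMIs in 38 of 276 NOD barcodes (53.8 CPM) and 35 UMIs in 10 of 317 CD1 barcodes (13.5 CPM), above the endothelial levels of 4.74 and 0.367 CPM. B-cell and myeloid shares lay near the background. Of 933 NOD B-cell barcodes, 11 (1.18%) had a UMI, and of 781 myeloid barcodes 16 (2.05%), with intervals that overlapped the endothelial share of 1.66% (0.971% to 2.65%). Plasma-cell barcodes, at 12 of 79 in NOD and 4 of 15 in CD1, exceeded it. The CD1 plasma-cell barcodes had a median of 35904 UMIs and held *Ncr1* in 8 of 15. Those of NOD held *Cd3g* in 18 and *Ncr1* in 11 of 79, so markers of T and NK cells were present in both. Their part in the *Ifng* shares was not tested.

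Barcodes with and without *Ifng* were compared within a subset, as a description, since barcodes of 1 library are not replicates and barcodes with the transcript were deeper. In the NOD *Cd4* subset, the 274 barcodes with *Ifng* had *Xcl1*, a chemokine for cross-presenting dendritic cells, at 543 CPM against 32.1 in the other 525, although a single barcode of 31745 UMIs held 689 of the 1323 UMIs. Without it the log2 ratio was 3.04 (2.74 to 3.35) in place of 4.08. *Pdcd1*, which encodes the inhibitory receptor PD-1, stood at 101 and 37.7 CPM (1.42, 1.11 to 1.75), *Tnfsf11*, the RANK ligand, at 231 and 109, and *Lta*, lymphotoxin alpha, at 44.7 and 19.5. *Tbx21*, which encodes T-bet, was 125 and 89.9 CPM. *Ccr6*, a chemokine receptor, was lower with *Ifng*, at 11.5 CPM against 38.6 (-1.75, -2.40 to -1.15). *Il17f* had no UMI against 26, of which 18 lay in a single barcode.

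In the NOD *Cd8a* subset, barcodes with *Ifng* had more *Gzmb*, the granule protease granzyme B (132 against 64.4 CPM), and more of the inflammatory chemokines *Ccl4* (432 against 189) and *Ccl3* (52.0 against 23.5). The *Ncr1* subsets of both strains shared this, with *Ccl3* at log2 ratios of 1.34 in NOD and 1.51 in CD1 and *Ccl4* at 1.97 and 0.92. *Eomes* was lower in the NOD *Ncr1* barcodes with *Ifng* (131 against 250 CPM, log2 ratio -0.93, -1.11 to -0.76) but not in those of CD1 (132 against 136). *Pdcd1*, which stood higher with *Ifng* in the *Cd4* subset, did not in the *Cd8a* subset (25.4 against 30.5 CPM).

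**Figure D4:**
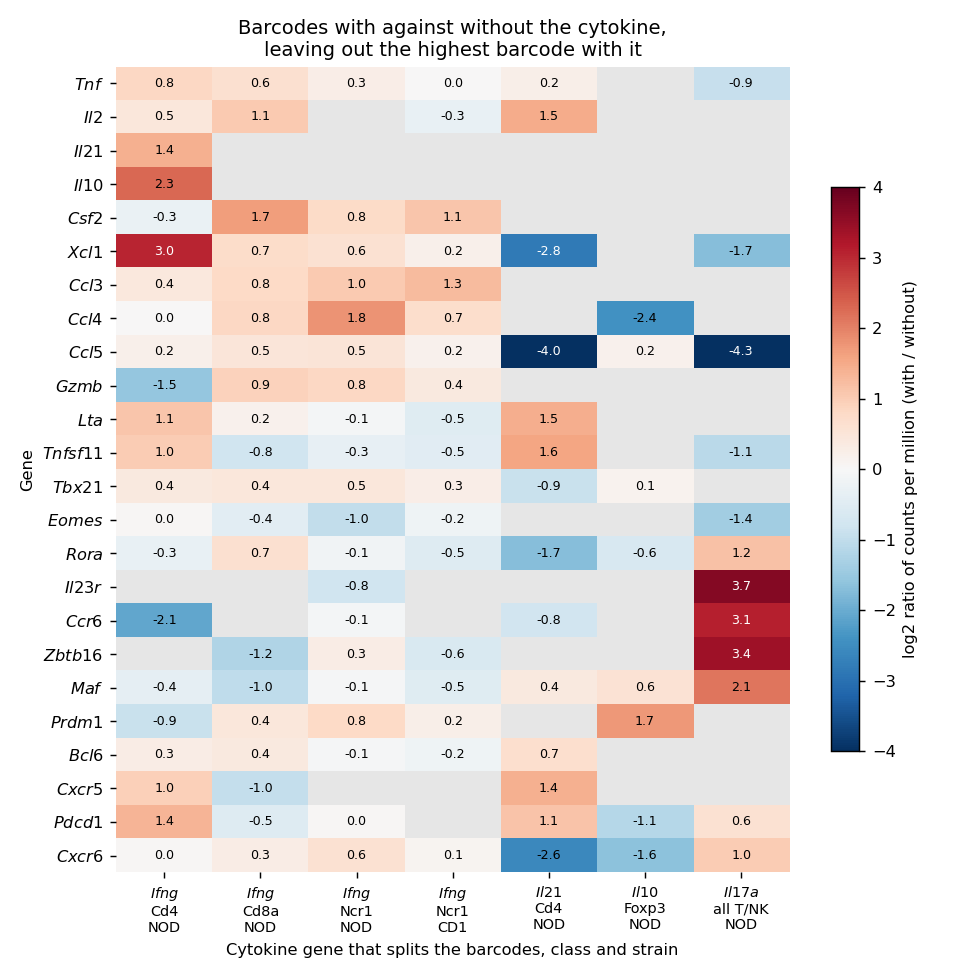
Log2 ratio of CPM in barcodes with a cytokine over barcodes without it (colour and number, red higher with the cytokine), for 7 combinations of cytokine, class and strain, leaving out the barcode that held most of each gene, which lowers the ratio somewhat. Grey cells had 3 or fewer UMIs on a side. *Xcl1* stands highest with *Ifng* in the *Cd4* subset, and *Il23r*, *Zbtb16* and *Ccr6* with *Il17a* over all T/NK barcodes, a contrast that also carries differences between subsets.

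*Tnf*, which encodes tumour necrosis factor, made by lymphocytes and macrophages alike, was found at 4011 UMIs in 1578 NOD barcodes and 4799 UMIs in 1447 CD1 barcodes. The levels of 92.3 and 97.1 CPM gave a log2 ratio of -0.07 (-0.13 to -0.01), and the sign turned to 0.22 when each barcode was given equal weight. The like totals came from different cells. In NOD, T/NK barcodes held 67.4% of the *Tnf* UMIs and myeloid barcodes 22.0%, and in CD1 they held 9.34% and 84.5%.

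Within myeloid barcodes the level of *Tnf* was 179 CPM in NOD (273 of 781 barcodes, 35.0%) and 198 in CD1 (1145 of 3001, 38.2%, in barcodes of greater depth), a log2 ratio of -0.15 (-0.26 to -0.04). Endothelial shares were 2.64% and 1.11%. Within the *Cd4* subset it stood at 155 and 168 CPM (-0.12, -0.56 to 0.37), in the *Cd8a* subset at 163 and 108 (0.60, 0.03 to 1.24) and in the *Ncr1* subset at 76.4 and 79.3 (-0.05, -0.26 to 0.15). The intervals of the *Cd4* and *Ncr1* ratios thus spanned 0. T/NK barcodes with *Cd3* but none of the 5 markers stood apart, at 142 and 58.4 CPM (1.28, 0.53 to 2.14), on 15 CD1 UMIs, as did the endothelial background at 8.30 and 3.30. Over T/NK barcodes together *Tnf* stood at 118 and 82.1 CPM (0.52, 0.38 to 0.67), where NOD had more *Cd4* and *Cd8a* barcodes and CD1 mostly *Ncr1* barcodes. Split by *Cd3e*, the *Ncr1* levels were 61.2 and 80.8 CPM without it and 94.5 and 64.4 with it.

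Barcodes with *Ifng* were also compared for *Tnf*. In the NOD *Cd4* subset, barcodes with *Ifng* held *Tnf* at 212 CPM against 114 in the others (log2 ratio 0.89, 0.70 to 1.09), and in the *Cd8a* subset at 207 against 126 (0.71, 0.48 to 0.95). In the NOD *Ncr1* subset the values were 86.7 and 68.8 (0.33, 0.08 to 0.59) and in CD1 84.6 and 76.3 (0.15, -0.18 to 0.48). In myeloid barcodes, *Tnf* went with *Ccl3*, at 198 against 69.7 CPM in NOD and 245 against 149 in CD1, where barcodes with *Tnf* had medians of 10053 and 9450 UMIs and those without it 1998 and 2630.5. B-cell barcodes in NOD held *Tnf* in 101 of 933 (10.8%), above the endothelial share of 2.64%, at 26.5 CPM.

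*Il2*, which encodes the T-cell growth factor interleukin-2, was sparse, with 144 UMIs in 94 NOD barcodes and 43 UMIs in 37 CD1 barcodes. The levels were 3.31 and 0.87 CPM (log2 ratio 1.93, 1.43 to 2.46). In NOD the *Cd4* subset held 76 UMIs in 37 of 799 barcodes (4.63%, endothelial 0.0978%), of which 24 lay in a single barcode. Without that barcode the *Cd4* subset still held the most, 43.3% of the remaining 120 UMIs. With the highest CD1 barcode left out as well, the log2 ratio over all barcodes was 1.77. No *Il2* UMI was found in 199 NOD *Foxp3* barcodes, which allows a share of up to 1.51%. In CD1 the *Ncr1* subset held 20 of the 43 UMIs, in 19 of 366 barcodes, at 4.87 CPM against 1.5 in NOD (10 UMIs, log2 ratio -1.70, -2.96 to -0.53). The *Cd4* levels of 13.2 in NOD and 28.0 in CD1 rest on 7 CD1 UMIs (-1.09, -2.20 to 0.27). Over all T/NK barcodes the levels were 5.67 and 5.50 CPM (0.04, -0.54 to 0.67), so the difference seen over all barcodes was not found within them.

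*Il21*, which encodes the helper T-cell cytokine that drives B-cell maturation, was nearly confined to NOD, with 262 UMIs in 93 barcodes against 1 UMI in CD1. The ratio is 298-fold, with a log2 interval of 5.73 to 13.53. The NOD *Cd4* subset held 178 UMIs in 61 of 799 barcodes (7.63%, 30.8 CPM), barcodes with several markers held 39, and barcodes of any class with a *Cd4* UMI accounted for 93.1%. The highest barcode held 31 UMIs, and without it the *Cd4* subset held 63.6%. The *Foxp3*, *Cd8a* and *Ncr1* subsets held 5, 6 and 1 UMIs and the *Trdc* subset none. The endothelial share was 0.196%. No *Il21* was found in the 32 CD1 *Cd4* barcodes, which allows a share of up to 9.38%, and this limit lies above the NOD share. The CD1 library therefore cannot show whether its *Cd4* cells differ from those of NOD in *Il21*.

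The 61 NOD *Cd4* barcodes with *Il21* were set against the other 738 for genes chosen after their values were seen. *Cxcr5*, the receptor that leads cells to follicles, stood at 63.9 against 20.3 CPM (log2 ratio 1.65, 1.04 to 2.23), *Pdcd1* at 147 against 56.5 (1.38, 1.00 to 1.75) and *Bcl6*, the factor of follicular helper T cells, at 91.0 against 49.6 (0.88, 0.40 to 1.33). *Tnfsf11* stood at 424 against 135 CPM, and *Ifng* at 287 against 123 (1.22, 0.95 to 1.48). *Ccl5*, a chemokine of effector T cells, was at 46.5 against 549 CPM and *Cxcr6*, a receptor of tissue-resident T cells, at 77.5 against 316. *Tbx21* was at 69.7 against 108 CPM (-0.63, -1.16 to -0.15). *Il21* was thus found with *Ifng* but in barcodes with less *Tbx21*.

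*Il17a*, which encodes interleukin-17A, a neutrophil-recruiting cytokine, had 54 UMIs in 24 NOD barcodes and 2 UMIs in 2 CD1 barcodes (1.24 and 0.0405 CPM, log2 ratio 4.94, 3.02 to 8.02). The NOD *Trdc* subset held 22 UMIs in 11 of 125 barcodes (8.80%) at 31.0 CPM, and the *Cd4* subset 15 UMIs in 5 of 799 barcodes at 2.6 CPM. Both CD1 UMIs were in the 17 *Trdc* barcodes, at 14.8 CPM (1.79 to 53.5), so the *Trdc* levels of the strains overlap. No UMI was found in 518 NOD *Cd8a* or 1023 endothelial barcodes. A single NOD barcode classed as B cell held 5 UMIs. Among NOD T/NK barcodes, the 21 with *Il17a* had *Il23r*, the receptor for interleukin-23, at 671 CPM against 46.7 in the other 3003 (log2 ratio 3.84, 3.55 to 4.13). *Zbtb16*, the innate-like T-cell factor PLZF, stood at 582 against 48.8, *Maf* at 439 against 91.3 and *Ccr6* at 208 against 20.3. *Tbx21* was at 23.7 against 183 CPM. Of the 21 barcodes, 11 lay in the *Trdc* subset, so these contrasts also carry differences between subsets. Within that subset (11 against 114 barcodes), *Il23r* stood at 1148 against 995 CPM (log2 ratio 0.21, -0.14 to 0.53). *Ccr6* stood at 147 against 94.6 (0.63, -0.44 to 1.58), so neither gene differed there beyond counting error. *Zbtb16* was still higher, at 988 against 558 (0.82, 0.44 to 1.19), and *Maf* stood at 561 against 388. The paralogue *Il17f* had 32 UMIs in NOD, of which 18 lay in a single *Cd4* barcode.

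*Il4*, which encodes the type 2 helper cytokine interleukin-4, was too sparse for any comparison, with 14 UMIs in 11 NOD barcodes and 4 in 4 CD1 barcodes. T/NK barcodes held 13 of the NOD UMIs and 3 of the CD1 UMIs, with 5 in the NOD *Cd4* subset. The remaining UMI of each strain was in an endothelial barcode.

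*Il10*, which encodes the anti-inflammatory cytokine interleukin-10, had 177 UMIs in 76 NOD barcodes and 24 UMIs in 24 CD1 barcodes (4.07 and 0.486 CPM, log2 ratio 3.07, 2.45 to 3.75). A single NOD barcode of 46613 UMIs with several subset markers held 46 of them, and without it and a CD1 barcode of 1 UMI the log2 ratio was 2.70 (2.05 to 3.40). Of the 131 NOD UMIs left, 34.4% were in the *Foxp3* subset and 23.7% in the *Cd4* subset. The *Foxp3* subset held 45 UMIs in 18 of 199 barcodes (9.05%) at 30.7 CPM, whereas the *Cd4* subset held 31 in 14 of 799 (1.75%) at 5.37 CPM, and the endothelial share was 0.489%. In CD1, 15 of the 24 UMIs were in myeloid barcodes (15 of 3001, 0.5%, endothelial 0.179%) and a single UMI was in T/NK barcodes. The myeloid level was 2.43 CPM in NOD and 0.733 in CD1 (log2 ratio 1.73, 0.50 to 2.92), on 12 and 15 UMIs. The endothelial background differed as much, at 0.846 and 0.262 CPM (1.69, -0.43 to 3.81) on 5 UMIs each, so no myeloid difference beyond the background was detectable at this depth. The class with the most *Il10* UMIs thus differed between the libraries, in which *Foxp3* barcodes numbered 199 and 3.

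The 18 NOD *Foxp3* barcodes with *Il10* had *Prdm1*, which encodes Blimp-1, a factor of effector regulatory T cells, at 229 CPM against 61.3 in the other 181 (log2 ratio 1.90, 1.27 to 2.50). *Maf*, a factor that acts on *Il10*, was at 389 against 222. *Foxp3* itself was 243 and 323 CPM (-0.41, -0.95 to 0.09). The 14 *Cd4* barcodes with *Il10*, in which no *Foxp3* was detected, had *Il2ra* at 303 against 44.8 CPM, *Ikzf2*, which encodes Helios, at 1313 against 493 and *Maf* at 404 against 135. Of their 203 *Ccl4* UMIs 170 lay in a single barcode. Whether *Foxp3* was missed in some of these 14 barcodes was not tested.

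*Csf2*, which encodes granulocyte-macrophage colony-stimulating factor, had 207 UMIs in 140 NOD barcodes and 124 UMIs in 75 CD1 barcodes (4.77 and 2.51 CPM, log2 ratio 0.93, 0.60 to 1.26). The *Ncr1* subset held the most UMIs in each strain, 75 in 52 of 745 NOD barcodes (6.98%) and 54 in 36 of 366 CD1 barcodes (9.84%), against endothelial shares of 0.391% and 0.107%. Its levels of 11.3 and 13.1 CPM did not differ beyond counting error (-0.22, -0.75 to 0.31). Within the barcodes without *Cd3e* the NOD level was lower, 5.79 against 11.5 CPM (-0.99, -1.82 to -0.21), and with *Cd3e* the levels were 17.8 and 29.5 (-0.73, -1.68 to 0.35). The NOD *Trdc* subset held *Csf2* in 14 of 125 barcodes (11.2%, 22.6 CPM), and the *Cd8a* subset in 15 of 518, where 14 of its 36 UMIs lay in a single barcode. Myeloid barcodes held 1 UMI in each strain, which is at or below the background. Over all T/NK barcodes *Csf2* was lower in NOD, 7.71 against 17.4 CPM (-1.17, -1.54 to -0.80), the direction opposite to that over all barcodes. This contrast also carries the mix of subsets. *Ncr1* barcodes made up 366 of the 510 CD1 T/NK barcodes, whereas NOD had more *Cd4* and *Cd8a* barcodes. Of the 95 CD1 UMIs, 32 lay in 24 barcodes with none of the markers.

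In CD1, 24 T/NK barcodes with none of the 5 markers and no *Cd3* UMI held 32 of the 124 *Csf2* UMIs, in 10 barcodes, at 169 CPM (116 to 239). The matching 43 NOD barcodes held 2 UMIs. In the CD1 group, *Gata3*, the factor of type 2 lymphocytes, stood at 946 CPM in the barcodes with *Csf2* and 730 in those without, *Il1rl1*, the interleukin-33 receptor, at 582 and 590, and *Rora* at 905 and 794. *Il5* had 5 UMIs in the former and 1 in the latter. The 2 groups had medians of 8317.5 (CD1) and 2121 (NOD) UMIs and are therefore not alike in depth.

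**Figure D5:**
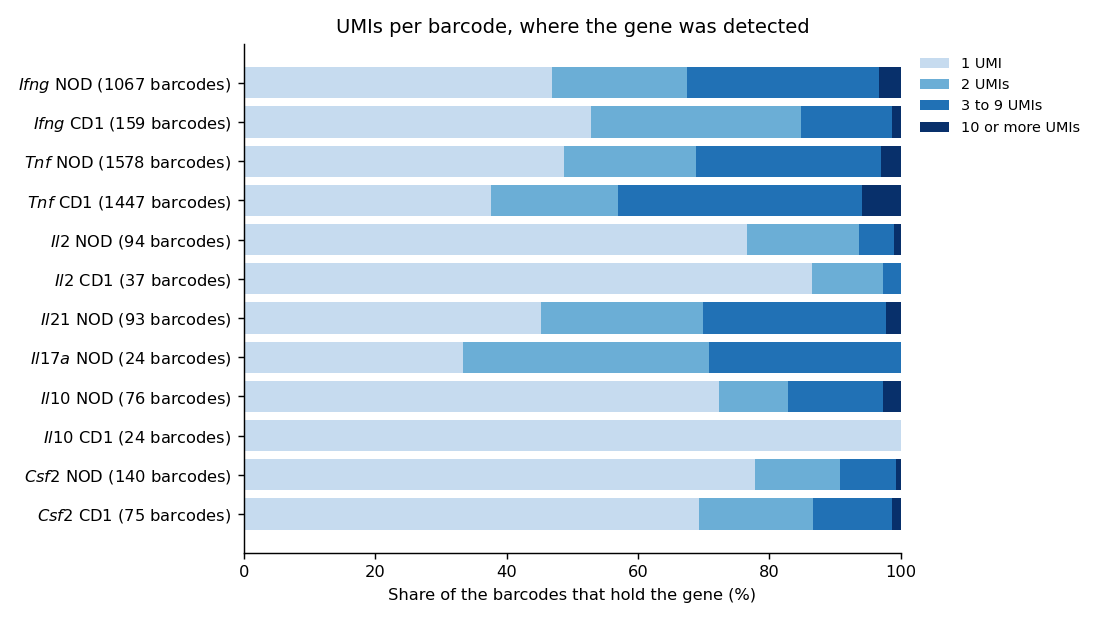
Barcodes in which each gene was detected, divided by the number of its UMIs (%, horizontal axis), for each member and strain with at least 20 UMIs. A single UMI was found in 72 of the 94 NOD barcodes with *Il2*, 55 of 76 with *Il10* and 109 of 140 with *Csf2*, whereas 347 of the 1067 NOD barcodes with *Ifng* held 3 or more.

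UMIs were spread unevenly over barcodes. The 10 highest NOD barcodes held 7.43% of the *Ifng* UMIs and 4.94% of the *Tnf* UMIs, but 33.3% for *Il2*, 40.1% for *Il21*, 54.8% for *Il10* and 63.0% for *Il17a*. Among the NOD barcodes with *Ifng*, 500 held 1 UMI, 220 held 2 and 35 held 10 or more. Values of the sparse members thus rest on few barcodes, and a single UMI in a barcode cannot tell low expression from a missed transcript.

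Detection in the same barcode was counted within T/NK barcodes, as a description, since deeper barcodes hold more of every gene. Of 958 NOD barcodes with *Ifng*, 470 (49.1%) also had *Tnf*, which was present in 35.3% of all NOD T/NK barcodes, and in CD1 66 of 138 (47.8%) against 38.2%. The median depth was 7965 UMIs with *Ifng* and 6549.5 over all NOD T/NK barcodes. *Ifng* was present in 31.7% of NOD T/NK barcodes, but in 55 of the 81 with *Il21* (67.9%, 56.6% to 77.8%), 64 of the 119 with *Csf2* (53.8%) and 43 of the 82 with *Il2* (52.4%). *Il10* went with *Ifng* in 20 of 48 barcodes (41.7%) and with *Il2* or *Csf2* in none. No barcode of the 21 with *Il17a* held *Ifng*, which allows a share of up to 14.3%, below the 31.7% of all T/NK barcodes. However, 11 of the 21 lay in the *Trdc* subset, where *Ifng* was present in only 15 of 125 barcodes (12.0%). The limit is not below that share, so these counts cannot show less *Ifng* with *Il17a* within the subset. *Tnf* was present in 7 of the 21.

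Transcription factors that direct these cytokines were mostly higher in NOD. Of 12 measured over all barcodes, 7 were at least 2-fold higher and 1 at least 2-fold lower, against 15.9% and 14.6% of all genes. Their median log2 ratio was 1.56, and the 4.78-fold larger T/NK share of UMIs in NOD enters it. Among these, *Ikzf2* (3.24) was followed by *Stat4*, the factor through which interleukin-12 acts (2.30), *Tbx21* (1.87), *Eomes* (1.82), *Batf* (1.70) and *Gata3* (1.42), and *Prdm1* was lower (-1.27). Within the *Ncr1* subset, where 6.48% of 12386 genes were 2-fold higher and 3.69% 2-fold lower, *Tbx21* was 280 and 269 CPM (0.06, -0.05 to 0.17), and *Zbtb16* was at least 2-fold higher (1.41). *Ifng*, at 1.99-fold, lay just under that limit. By subset in NOD, *Zbtb16* stood at 603 CPM in the *Trdc* subset and *Ikzf2* at 4417 in the *Foxp3* subset and 508 in the *Cd4* subset.

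Other lymphocyte cytokines were also mostly higher, with 8 of 13 at least 2-fold higher in NOD and 1 lower, against 15.9% and 14.6% of all genes. Their ratios over all barcodes also carry the 4.78-fold larger T/NK share of UMIs in NOD. *Cd40lg*, the ligand by which helper T cells activate B cells, had a log2 ratio of 4.60, *Tnfsf11* and *Ccl5* 2.93 each, *Il17f* 2.86, *Ltb* 2.01, *Tnfsf14* 1.83, *Lta* 1.82 and *Fasl* 1.69. The *Il17f* value rests largely on the barcode with 18 UMIs. *Ccl3* was lower (-1.02), with 4169 UMIs in CD1 myeloid barcodes against 735 in NOD myeloid and 825 in NOD *Ncr1* barcodes. These sums are not scaled to class size, and the classes held 3001, 781 and 745 barcodes. In the *Ncr1* subset 3 of 11 were higher (*Cd40lg* 2.52, *Ccl3* 1.86, *Ccl4* 1.17) and 2 lower (*Tnfsf11* -1.84, *Lta* -1.62). The shares over all genes there were 6.48% and 3.69%. *Il5* had 24 NOD and 33 CD1 UMIs, *Il22* 7 and 0, *Il13* 1 and 3, and *Il3* and *Il9* none in either library.

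Receptors of the 8 cytokines were found in lymphoid, myeloid and endothelial barcodes. Of 16 receptor chains, 4 were at least 2-fold higher in NOD over all barcodes (log2 ratios *Il2rb* 1.80, *Il2rg* 1.76, *Il17ra* 1.72, *Il21r* 1.08) and 3 lower (*Csf2ra* -1.81, *Ifngr2* -1.47, *Tnfrsf1a* -1.07), shares near the 15.9% and 14.6% over all genes. Myeloid barcodes made up 12.0% of NOD and 42.8% of CD1 barcodes and endothelial barcodes 15.7% and 39.8%, which enters these ratios. *Ifngr2*, the signalling chain of the interferon gamma receptor, was found at 203 CPM (NOD) and 245 CPM (CD1) in myeloid barcodes but at 7.96 in the *Cd4* subset, 2.71 in the *Cd8a* subset and 4.95 in the *Ncr1* subset of NOD. *Ifngr1*, its binding chain, was found throughout, at 217 in NOD myeloid, 201 in endothelial and 164 in *Cd4* barcodes. *Csf2ra* stood at 154 (NOD) and 188 (CD1) CPM in myeloid barcodes and *Tnfrsf1a*, the widely acting tumour necrosis factor receptor, at 142 and 138 in endothelial barcodes. *Il2ra*, the high-affinity chain for interleukin-2, was at 316 CPM in the NOD *Foxp3* subset and also at 114 and 183 in myeloid barcodes, and *Il21r* at 168 in NOD B-cell barcodes. Within myeloid barcodes, where 9.52% of 14922 genes were 2-fold higher and 5.94% 2-fold lower, 3 of 15 receptor chains were higher and none lower, with a median of -0.03 against 0.08 over all genes.

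Genes whose level over 25 classes (a subset or lineage of 1 strain with at least 30 barcodes) was most like that of each member were ranked among 15418 genes by Pearson's r of log2(CPM + 10). The classes differ in depth and share libraries, so r is a description. *Il21* exceeded 10 CPM only in the NOD *Cd4* subset (30.8) and NOD barcodes with several markers (15.2), so its r rests on few classes. Most classes also held *Il2*, *Il10* and *Csf2* below 10 CPM. The CD1 class with *Csf2* at 169 CPM had 24 barcodes and was left out. For *Ifng* these were *Sla2* (0.94), *Ms4a4b* (0.92), *Sh2d1a* (0.91), *Sytl3* (0.91) and *Tbx21* (0.90). For *Tnf* they were *Laptm5*, *Otulinl*, *Vrk2*, *Fyb1* and *Epsti1* (0.92 to 0.93). *Il21* was most like *Stfa3* (0.98), *Gm2663* (0.96), *Hs6st3* (0.93), *Wnt3* (0.91) and *Col24a1* (0.89). *Il10* was most like *Gm50629* (0.93), *Gm3667* (0.85), *Gm38506* (0.83), *Izumo1r* (0.83) and *Foxp3* (0.83). *Csf2* was most like *Gm35388* (0.92), *Tnfsf14* (0.91), *Gm31887* (0.88), *Trgc4* (0.88) and *Slc27a6* (0.87). *Il2* was less closely matched, with *Gm35037*, *Lta*, *Gm42074*, *Dnaaf4* and *Hif1an* between 0.78 and 0.80.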

How the data were processed

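The authors deposited raw UMI counts per gene and barcode for all barcodes of both libraries, made with Cell Ranger 8.0.0 on build GRCm39 as named in the submitters' processing notes (which also name Seurat 5.0.1 and R 4.3.1). No cell filter or free-RNA correction had been applied to these deposited counts. The NOD library held 52790319 UMIs in 1298073 barcodes and the CD1 library 56483149 in 1331542. The 8 genes and all gene lists were chosen with earlier results of these data known.

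Barcodes with at least 500 UMIs and at least 300 genes were kept (python 3.11.15, numpy 2.4.6, scipy 1.17.1, pandas 2.3.3). A lineage was given where the leading of 8 marker lists had at least 2 UMIs and at least 2 times those of the next, and T/NK barcodes were split by UMIs of the 5 marker genes. Because *Cd4* is often missed, subsets can be incomplete. Levels are UMIs of a class per 1000000 UMIs of that class, with exact Poisson intervals. Shares have Clopper-Pearson intervals, ratios have conditional binomial intervals, and a count of 0 is given with the limit that 3 counts allow. The intervals were tested on simulated counts drawn with Poisson error, the error they assume. That test cannot show how they hold for UMIs clustered in few barcodes, where they can be too narrow. Scrublet in scanpy 1.11.5 marked 338 NOD and 394 CD1 barcodes, which were kept except in the alternative that removed them. Genes were called 2-fold higher or lower among those with at least 20 UMIs in the libraries together. With 1 library per strain no test was run.

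Named genes were the 8 members, the lists of receptors, transcription factors and other cytokines, and the 5 genes most like each member with at least 100 UMIs. The other genes compared between barcodes with and without a cytokine (*Pdcd1*, *Cxcr5*, *Gzmb*, *Il23r*, *Ccr6*, *Cxcr6*, *Il1rl1*), the split by *Cd3e*, the values without the highest barcode and those without the 18 barcode sequences found in both libraries were chosen after seeing the data. Promoters came from RefSeq on GRCm38.p6, and no coordinate was carried to the build of the counts. The methods name collagenase, hyaluronidase and dispase for dissociation and the labels Liberase and dispase. The values of 1 transcription factor of these lists are not reported here. Figures were drawn with matplotlib 3.10.9.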

Additional observations from a re-analysis of the deposited data

How the results depend on the processing

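No paired analysis was possible because each strain was 1 pooled library. Of 46 recomputed values over 6 results (*Ifng* and *Tnf* ratios and the share of NOD *Ifng* UMIs in the *Ncr1* and *Cd8a* subsets), 39 stayed within the counting interval, 6 moved beyond it and 1 reversed. With equal weight per barcode the *Tnf* log2 ratio over all barcodes turned to 0.22, that of *Ifng* was 3.84, that of *Tnf* in myeloid barcodes was -0.26 and the share of NOD *Ifng* UMIs in the *Cd8a* subset was 20.3%. With median-of-ratios scaling the *Tnf* log2 ratio over all barcodes was -0.16. With the barcodes marked as doublets removed, the *Ncr1* subset held 27.3% and the *Cd8a* subset 19.3% of the NOD *Ifng* UMIs.

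Thinned to 500 UMIs per barcode, shares with a UMI in NOD and CD1 were 2.63% and 0.171% for *Ifng*, 3.71% and 3.41% for *Tnf*, 0.2% and 0.0428% for *Il2*, 0.0923% and 0.0428% for *Il10*, 0.231% and 0.0713% for *Csf2*, 0.0769% and 0% for *Il17a* and 0.0308% and 0% for *Il4*, and 0.215% for NOD *Il21*. Fewer UMIs per barcode lower each of these by construction.

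With a marker UMI in any barcode in place of exclusive subsets, *Cd4* barcodes held 42.5% of the NOD *Ifng*, 32.7% of the *Tnf*, 70.1% of the *Il2* and 93.1% of the *Il21* UMIs, *Trdc* barcodes 70.4% of the *Il17a*, *Foxp3* barcodes 55.4% of the *Il10* and *Ncr1* barcodes 50.2% of the *Csf2* UMIs. In CD1, *Ncr1* barcodes held 90.2% of the *Ifng*, 9.69% of the *Tnf* and 53.2% of the *Csf2* UMIs. Depth limits *Il4* and the CD1 *Il21* and *Il17a* values to a few UMIs, and CD1 T-cell subsets to at most 34 barcodes each.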

Other observations

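Cytokines that induce the members were examined by class. *Il12a*, a subunit of interleukin-12, had 99 UMIs in NOD and 10 in CD1 (log2 ratio 3.49, 2.55 to 4.60). Of the NOD UMIs 87 were in B-cell barcodes, 71 of 933 (7.61%). CD1 had only 24 B-cell barcodes, so this ratio also carries the difference in their number. *Il12b*, the other subunit, had 744 UMIs in NOD, of which 626 (84.1%) lay in a single barcode of 47498 UMIs classed in the *Ncr1* subset. Without that barcode 118 NOD UMIs remained against 299 in CD1, so the higher NOD level over all barcodes (17.1 against 6.05 CPM) rests on it. Within myeloid barcodes *Il12b* stood at 21.7 CPM in NOD (107 UMIs in 15 of 781 barcodes). In CD1 it stood at 14.6 CPM (298 UMIs in 23 of 3001). Whether that barcode held more than 1 cell was not tested.

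Of 7 such genes measured over all barcodes, 2 were at least 2-fold higher in NOD, *Il12a* and *Il12b*, and 2 lower, *Il18* (-1.38) and *Il1b* (-1.14), against 15.9% higher and 14.6% lower of all genes. The *Il12b* call rests on the barcode with 626 UMIs, and that of *Il12a* carries the larger number of B-cell barcodes in NOD. The ratios of *Il18* and *Il1b* over all barcodes also carry the smaller share of myeloid barcodes in NOD. Within myeloid barcodes, *Il1b*, an inflammasome product, was instead higher in NOD at 134 against 82.3 CPM (log2 ratio 0.71, 0.57 to 0.84). *Il15*, a survival factor of NK cells, stood at 62.4 against 38.5 (0.70, 0.50 to 0.89) and *Il27* at 17.0 against 7.92 (1.10, 0.71 to 1.49), whereas *Il18* was 61.4 and 58.6 (0.07, -0.12 to 0.25).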
